A study of Oryza sativa with 16 samples.

Results

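Root-selective FL-cDNA loci are places in the rice genome to which full-length cDNA clones were mapped and whose common probe was bright in root and dim in shoot, callus and panicle of the cultivar Nipponbare. They were chosen by their measured signal: a level over 2000 in root and under 1000 in each of the other 3 tissues, where the median channel level is 1000. Of the 20404 FL-cDNA loci with a common probe (1 probe per locus, 60 bases long), 189 met this rule. The root, shoot, callus and panicle levels of these loci are therefore given as a description, without a test.

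The series compared Nipponbare root, panicle and callus, and shoot of the cultivar IR64, each with Nipponbare shoot on the same 2-color arrays. Every comparison had 2 replicates on 2 array sets, and the tissue carried Cy3 in replicate 1 but Cy5 in replicate 2, so that replicate and dye cannot be told apart. The 2 array sets of a replicate are counted together as 1 hybridization, of which root, callus, panicle and IR64 shoot had 2 each and Nipponbare shoot had 8. Root came from japonica plants (Nipponbare) kept for 10 days in diluted nutrient solution in a growth chamber, callus from 28 days on induction medium, panicle from plants in the field, IR64 shoot from indica plants kept for 10 days in soil in a greenhouse, and Nipponbare shoot from japonica plants kept in the same way as the IR64 plants according to the labels. The study's methods state another age for the shoots. RNA of several plants was pooled for a sample, shoot RNA was extracted with Trizol and the RNA of the other tissues with an RNeasy kit. Between shoot and root, callus or panicle, the effects of tissue, growth condition and extraction cannot be told apart. Among root, callus and panicle the kit was the same, but tissue and growth condition cannot be told apart. The labels do not say that replicates came from separate plants, so p-values measure only the spread between these hybridizations, which may be technical.

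As background, the root takes up water and mineral ions and anchors the plant, and it is a tissue without photosynthesis. Genes with transcripts mainly in root are known in rice for membrane transport of ions, for cell wall formation, for redox enzymes of the apoplast and for root hairs. Callus is dividing tissue without organs, and the panicle is the flowering shoot. A level here is the deposited processed signal, scaled so that the median probe of a channel is 1000. A probe not well above background in a channel counts as 0 there, and a tissue value is the median over its hybridizations. The files pair the locus names with no gene names, so the tissue labels could not be checked on marker genes and no function is given to any locus.

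Between 80.5% and 95.5% of the 42034 probes other than controls were well above background in a channel. Over all 20404 loci the root level had a median of 3201, the shoot level 2568, the callus level 3354 and the panicle level 3442. Of the 12344 loci over 2000 in root, 10811 (87.6%) reached 1000 in shoot, callus and panicle as well. Only the 189 selective loci (1.53%) reached 1000 in none of them. The same rule turned to the other tissues found 133 loci in shoot, 177 in callus and 208 in panicle.

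The 189 loci had a median root level of 4408, with quartiles of 2894 and 11753 and a range of 2003 to 261904. Their median level was 314 in shoot, 342 in callus and 361 in panicle. The next brightest tissue was panicle for 72 loci, callus for 62 and shoot for 51, so that no single tissue came second. The remaining 4 loci were not well above background in any of the 3 tissues. Where another tissue had a value, root exceeded the brightest one by 2.08 to 1934 times, with a median of 10.5 times, and by over 100 times at 12 of 185 loci. In shoot 33 of the 189 loci were not well above background, in panicle 24 and in callus 8, against 1018, 401 and 302 of all 20404 loci in the same tissues.

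The brightest of these probes in root belonged to R11-00052R. A locus name gives the chromosome, a running number and the strand letter, so this locus lies on chromosome 11. Its root level was 289796 in replicate 1 and 234012 in replicate 2, and 1 root channel was saturated. Callus levels were 209 and 130, panicle levels 391 and 310, and IR64 shoot levels 428 and 493. Nipponbare shoot had 16713 and 18457 on the root arrays and between not well above background and 579 in the 6 other hybridizations. Root thus lay above every other hybridization, but the shoot level depended on the array it was read on, which is taken up below for all loci.

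R07-00011F had root levels of 116757 and 166939. It was not well above background in callus, panicle and IR64 shoot or in the shoot channel of any array but the root arrays, where shoot had 8050 and 12057. Against the lowest signals well above background, root was at least 241-fold higher than callus and at least 224-fold higher than panicle (means of log2 values after normexp, loess and Aquantile). R03-00019R had 117687 and 113953 in root, 1 callus value of 76.9 and 1 panicle value of 120, and 1 shoot value of 191 away from the root arrays. On the root arrays its shoot levels were 4206 and 5507. Its ratio of 1934 over the next tissue, the largest of all, and that of 1420 at R06-00472R rest on tissue values that average 1 measured hybridization with 1 at 0. For R06-00472R root had 35967 and 49100, and the only signal away from the root arrays was 59.9 in 1 callus hybridization.

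Further loci among the 15 brightest in root showed the same separation. R03-00210R had 71526 and 126187 in root, 622 and 737 in panicle and 380 and 415 in callus. R03-00380F had 74966 and 73837 in root and 477 and 507 in panicle. R12-00154F, R04-00035R and R10-00016R, at 46122 and 65552, 43052 and 68576, and 43188 and 50082 in root, had callus as the next tissue with levels between 586 and 822. R10-00267R and R05-00088F had root levels between 33106 and 58285 and had shoot as the next tissue. Since a signal also depends on the probe, this order ranks probes and not amounts of RNA.

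**Figure D1:**
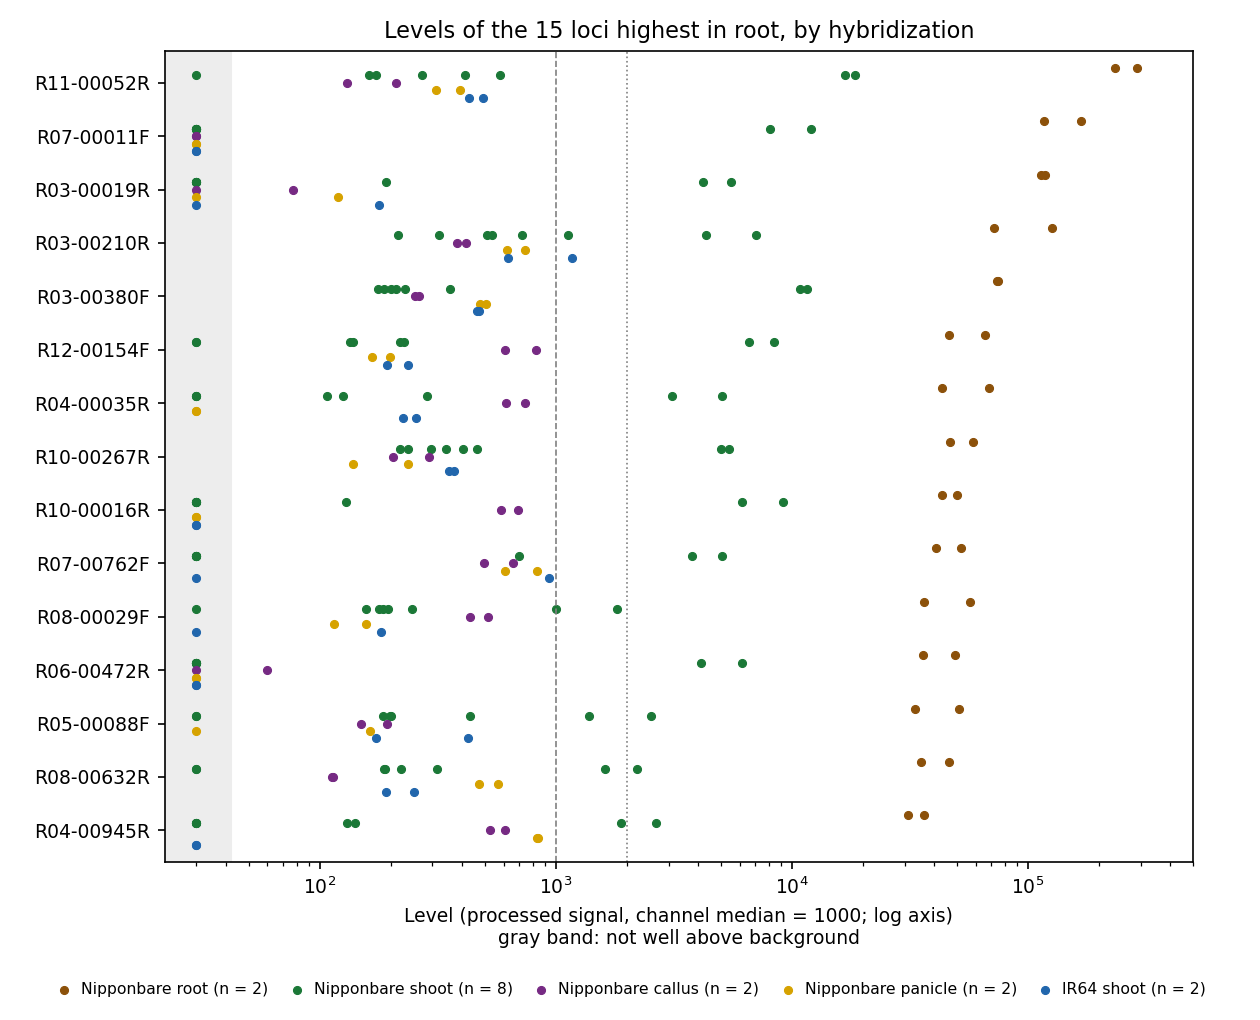
Level of the 15 probes highest in root (rows) in every hybridization, on a log axis, where the channel median is 1000. The dashed line marks 1000 and the dotted line 2000. All root points lie over 30000 and the highest callus, panicle or IR64 shoot point is at 1165, whereas the 2 shoot points read on the root arrays lie to the right of the other 6 at each locus.

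Among the 4 loci with tissue values of 0 in shoot, callus and panicle, R01-00231F had 12748 and 14404 in root, R07-00049R had 6512 and 11768, and R05-00269F had 3007 and 3808, beside R07-00011F described above. No callus or panicle hybridization was well above background at any of them, and root was at least 24.8-fold, 16.7-fold and 6.88-fold higher than callus in the order given. On the root arrays shoot had 1462 and 1770 at R01-00231F, 1 value of 356 at R07-00049R and 1 value of 194 at R05-00269F. R06-00248F came close to them, with 6014 and 6265 in root, no shoot signal well above background on any array, including the root arrays, and 1 callus value of 72.8.

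At the edge of the rule, R07-00150F, R06-00446F and R04-00840R were members with root levels of 2003, 2012 and 2027, while R01-01404R, R06-00098R and R02-00532R missed only by root levels of 1998, 1989 and 1968. On the other side, R03-00174R and R11-00033F were members with panicle levels of 999.9 and 993, and R01-01108R with a shoot level of 989.8. R01-00260R and R02-00184R missed only by panicle levels of 1005 and 1008. R10-00438R, with a root level of 129772, missed only by a callus level of 1009. The borders thus run through a continuous range of levels.

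Both replicates gave root values of similar size. All 189 loci were well above background in both root hybridizations, and 169 were over 2000 in both. The log2 ratio of replicate 1 over replicate 2 had a median of -0.28, with quartiles of -0.49 and -0.15, against a median of -0.23 over the 15127 loci over 1000 in root with a value in both. Replicates were over 2-fold apart at 2 of the 189 loci (1.06%) and at 1.82% of those 15127. One of the 2 was R07-00285R, with 3951 in replicate 1 and 299.5 in replicate 2. Its spot in replicate 1 was marked as an outlier by the image software in both channels, and shoot had 2188 on the same arrays, so that this was the only locus whose lower root value did not lie above every shoot, callus and panicle hybridization. The other was R04-00050F, with 1499 and 3011. R08-00086F, R07-00049R and R04-00877R had the next largest differences, with 2275 and 4206, 6512 and 11768, and 1526 and 2733.

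Selection on 1 replicate was set against the hybridizations of the other replicate, which that selection had not used. The replicates were not fully separate, since by the labels the shoot extract on the callus arrays of replicate 1 was the one used on all arrays of replicate 2. On replicate 1 alone the rule chose 177 loci, and in replicate 2 root was over 2000 at 174 of them and above shoot, callus and panicle at 176. On replicate 2 alone it chose 200 loci, and in replicate 1 root was over 2000 at 161 and above the other tissues at 199. Of all 20404 loci, 61.6% were over 2000 in root in replicate 2 and 59.1% in replicate 1. With both replicates together, root was the brightest of the 4 tissues at 21.2% of all loci. The full rule held again at 147 loci, which is 83.1% of the first choice and 73.5% of the second, while 0.98% and 0.867% of all loci met it in replicate 2 and replicate 1. The median root level in the replicate not used was 5876 and 3853. Shoot, callus and panicle all stayed under 1000 in the replicate not used at 149 of the 177 and 182 of the 200 loci. Root was thus again the brightest tissue at all but 1 locus of each choice, while the thresholds were missed more often.

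The Nipponbare shoot channel gave different levels at these loci depending on the tissue it shared the array with. On the root arrays the median shoot level of the 189 loci was 561 in replicate 1 and 699 in replicate 2. In the 6 hybridizations against callus, panicle and IR64 shoot it lay between 241 and 326. Shoot was over 1000 at 54 and 66 of the loci on the root arrays, against 3 to 13 loci in the other 6 hybridizations. At 102 of the 189 loci (54.0%) both shoot values from the root arrays exceeded all 6 others, compared with 43 of the 2842 loci under 1000 in all 4 tissues (1.51%) and 790 of all 20404 loci (3.87%). Over all loci the median shoot level was 2468 and 2753 on the root arrays and 2245 to 2797 on the others, but the scaling sets the median probe of every channel to 1000 and so largely fixes these values.

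The difference grew with the root level. Among the 49 loci with root levels up to 3000, the median shoot level was 405 on the root arrays and 298 on the other arrays. Among the 38 loci with 10000 to 30000 it was 1420 on the root arrays and 277 on the other arrays, and 37 of them had a mean on the root arrays above all 6 other values. Among the 17 loci over 30000 it was 4856 on the root arrays and 136 on the other arrays, with all 17 above. In this last group the shoot channel of the root arrays held a median of 7.09% of the root level, against 16.2% in the first group. At R03-00380F shoot had 10864 and 11543 on the root arrays and 177 to 354 elsewhere. At R12-00154F it had 6574 and 8427 on the root arrays and at most 228 elsewhere.

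**Figure D2:**
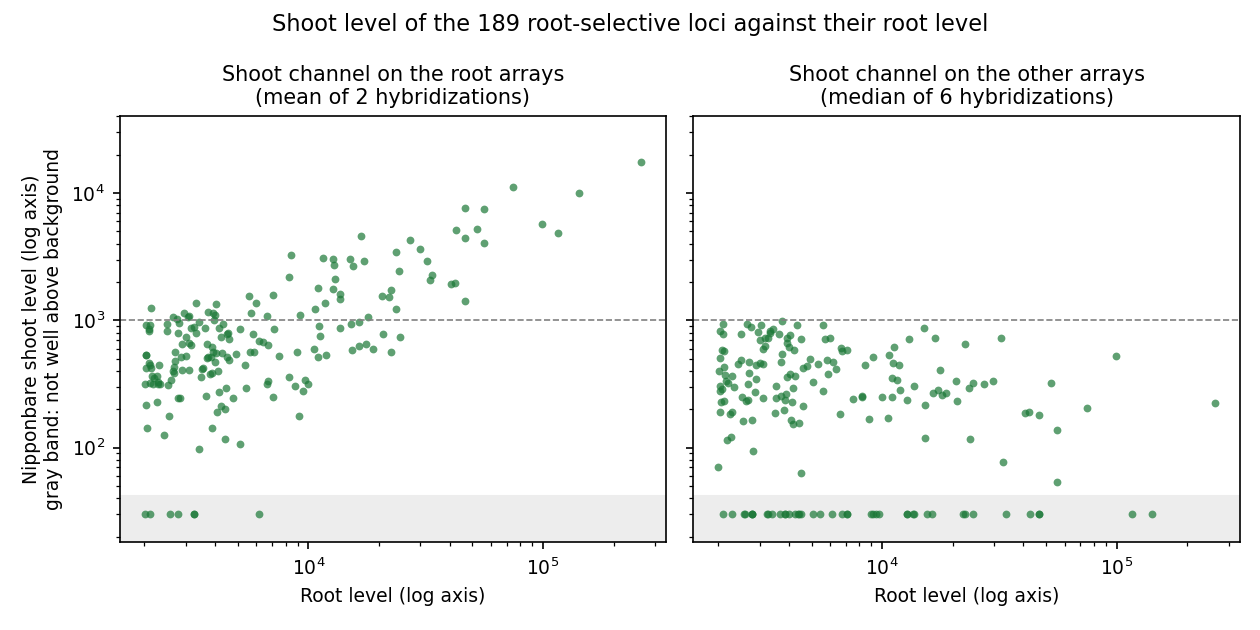
Nipponbare shoot level (y, log axis) against root level (x, log axis) of the 189 loci, with shoot from the root arrays on the left and from the other arrays on the right; points in the gray band were not well above background. On the left the shoot level climbs with the root level up to 17585, and on the right it stays under 1000.

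The same held for loci selective for other tissues on their own arrays. The 177 callus-selective loci had median shoot levels of 519 and 532 on the callus arrays and 248 to 319 elsewhere, with both callus-array values above the other 6 at 50.8% of loci. The 208 panicle-selective loci had 852 and 857 on the panicle arrays and 276 to 341 elsewhere, with both values above the rest at 69.2%. On the root arrays those 2 groups had shoot medians of 248 to 285. The extracts named in the labels were shared between the comparisons. Scan days differed between comparisons, and scan and partner tissue therefore cannot be told apart. The part of the partner tissue's own signal in these shoot levels was not tested.

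**Figure D3:**
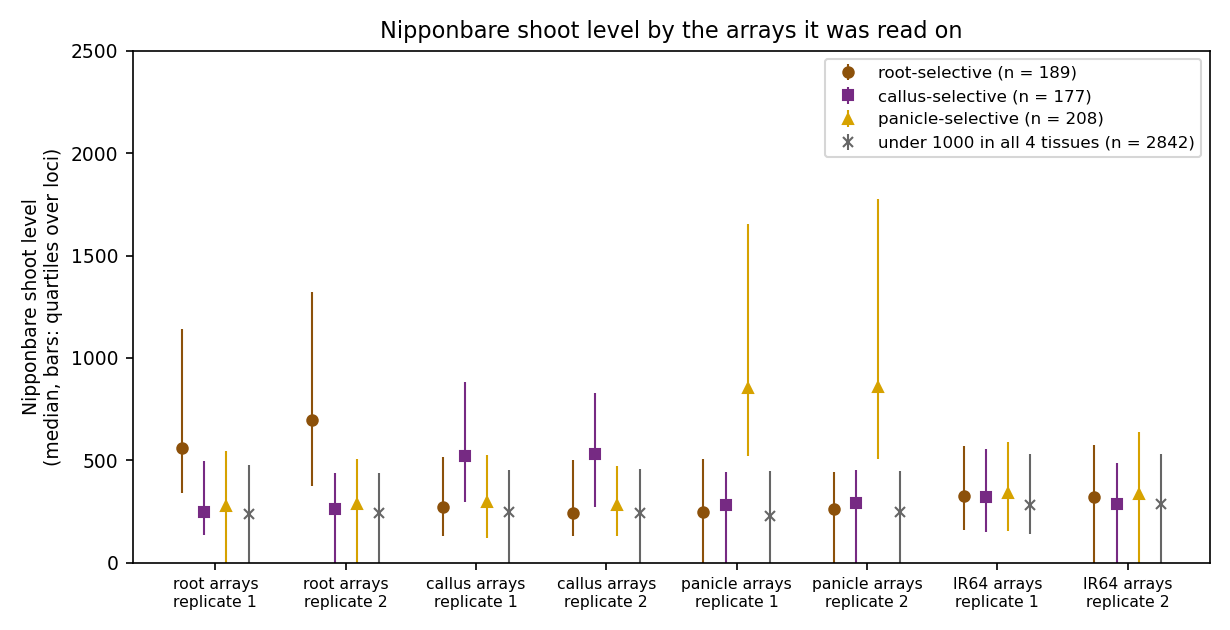
Median Nipponbare shoot level with quartiles over loci (bars) in each of the 8 shoot hybridizations, for loci selective for root, callus or panicle and for loci under 1000 in all 4 tissues. The root-selective loci stand at 561 and 699 on the root arrays and at 241 to 326 on the others; callus- and panicle-selective loci stand high on their own arrays only.

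This bears on the size of the root over shoot ratio. Measured within the root arrays, the log2 ratio of root over shoot (limma) had a median of 3.07 over the 189 loci, and 2.93 over the 173 loci where root and shoot were both well above background on the 2 root hybridizations. With scaled levels it was 2.93 against the shoot of the root arrays (182 loci with a value there) and 3.63 against the shoot of the other arrays (146 loci with a value there). Over the 145 loci with a value on both, it was 2.81 against the shoot of the root arrays. For the 40 loci over 10000 in root with a shoot value elsewhere, the medians were 3.76 against the root arrays and 6.04 against the others. The median was 0.31 over all 20404 common probes and -0.05 over all 83040 probes in the fit. In the same fit 187 of the 189 loci were called higher in root and 0 lower at an adjusted p of 0.05. The shares were 39.6% and 22.5% of all common probes, and 23.1% and 23.2% of all probes. But this contrast was part of the selection, and the count of 187 shows nothing beyond it. The 2 loci not called were R07-00285R (log2 ratio 0.41 ± 0.32 SE, adjusted p = 0.351) and R09-00124R (1.82 ± 0.64 SE, adjusted p = 0.0576). With the shoot level taken from the root arrays alone, 130 loci would have met the rule, and with shoot from the other 6 hybridizations 191.

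Other probes designed at the same loci were not used in the selection. Of the 189 loci, 38 (20.1%) had such probes, compared with 25.7% of all loci. They were 148 probes, 140 with names that begin with E5 and 8 with the letter S in their names. Neither the files nor the study's methods explain these names. The design names mark E5 probes COMM, like the common probes, but mark S probes SPEC, so these 148 probes are not of 1 kind. Of these, 104 were called higher in root than in shoot (70.3%) and 11 lower (7.43%), compared with 23.1% and 23.2% of all 83040 probes and with 23.5% and 27.9% of all 17040 probes of these classes (limma, adjusted p under 0.05). Their median log2 ratio was 1.39, against -0.08 for all E5 and S probes. Probes of 1 locus were read on the same hybridizations and are not replicates. Root was the brightest of the 4 tissues at 111 of the 148, and at 21.2% of all 20404 common probes. The share brightest in root over all E5 and S probes is not given here. Of the 148, 45 (30.4%) themselves met the selection rule, compared with 0.739% of all E5 and S probes.

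The loci differed in how far their probes went together. At 16 of the 38 loci every other probe was called higher in root, and the share over all loci with other probes is not given here. R08-00599R had 9 E5 probes and all 9 met the rule, with root levels from 4486 to 11677 and shoot levels of at most 638; its common probe had 7807 and 11620 in root. Their log2 ratios ran from 2.29 to 4.95. R07-00464F also had 9 of 9 called higher, with log2 ratios from 0.70 to 2.14, but only 4 met the rule, and the other 5 had shoot levels between 1094 and 4973. R09-00124R, whose common probe missed the threshold, had 6 of 6 called higher, with a median log2 ratio of 2.25. R03-00015F (5 of 5), R07-00055F (4 of 4), R12-00105R (4 of 4), R02-00782F (3 of 3) and R04-00891F (3 of 3) were of the same kind. At R02-00782F the 3 E5 probes read 289161, 312971 and 328220 in root and 662 to 17066 in shoot, and the common probe 4176 in root.

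In the IR64 comparison 0 of the 148 probes were called higher and 1 lower (0.676%), compared with 2.29% and 5.75% of all E5 and S probes (limma, adjusted p under 0.05). An unadjusted p under 0.05 was found at 12 of the 148 (8.11%) and at 18.1% of all E5 and S probes. At 9 loci no other probe was called higher in root than in shoot. R01-00686F had 5 E5 probes with 10619 to 20381 in root and 7409 to 18742 in shoot, whereas its common probe had 3544 in root. None of the 5 was called. At R07-00701F both E5 probes were called lower in root, with log2 ratios of -0.93 and -1.13. The S probe of R03-00088F was at 5229 in root and 12307 in shoot (log2 ratio -1.18), that of R07-00435R at 30707 in root and 57293 in shoot (-0.70), and the E5 probe of R03-00423R at 4099 in root and 10065 in shoot (-1.23); all 3 were called lower. The S probes of R02-00658R and R06-00635F were not well above background in root, shoot, callus and panicle. The 3 E5 probes of R07-00285R had at most 142 in root.

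At 4 loci, probes of both directions lay side by side. R02-00218F had 5 of its 9 E5 probes called higher and 3 lower, with log2 ratios from -1.11 to 3.17. R12-00291F had 8 higher and 1 lower, R11-00530R 6 higher and 1 lower, and R01-00795R 6 higher and 1 lower of 8. At R11-00530R callus was the brightest tissue at 3 of the 9 E5 probes, with callus levels of 15971, 62621 and 83468, while its common probe was not well above background in callus. R04-00840R had 7 of 9 called higher and none lower. A locus name thus stood for a root-selective signal at its common probe and not at each of its probes.

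**Figure D4:**
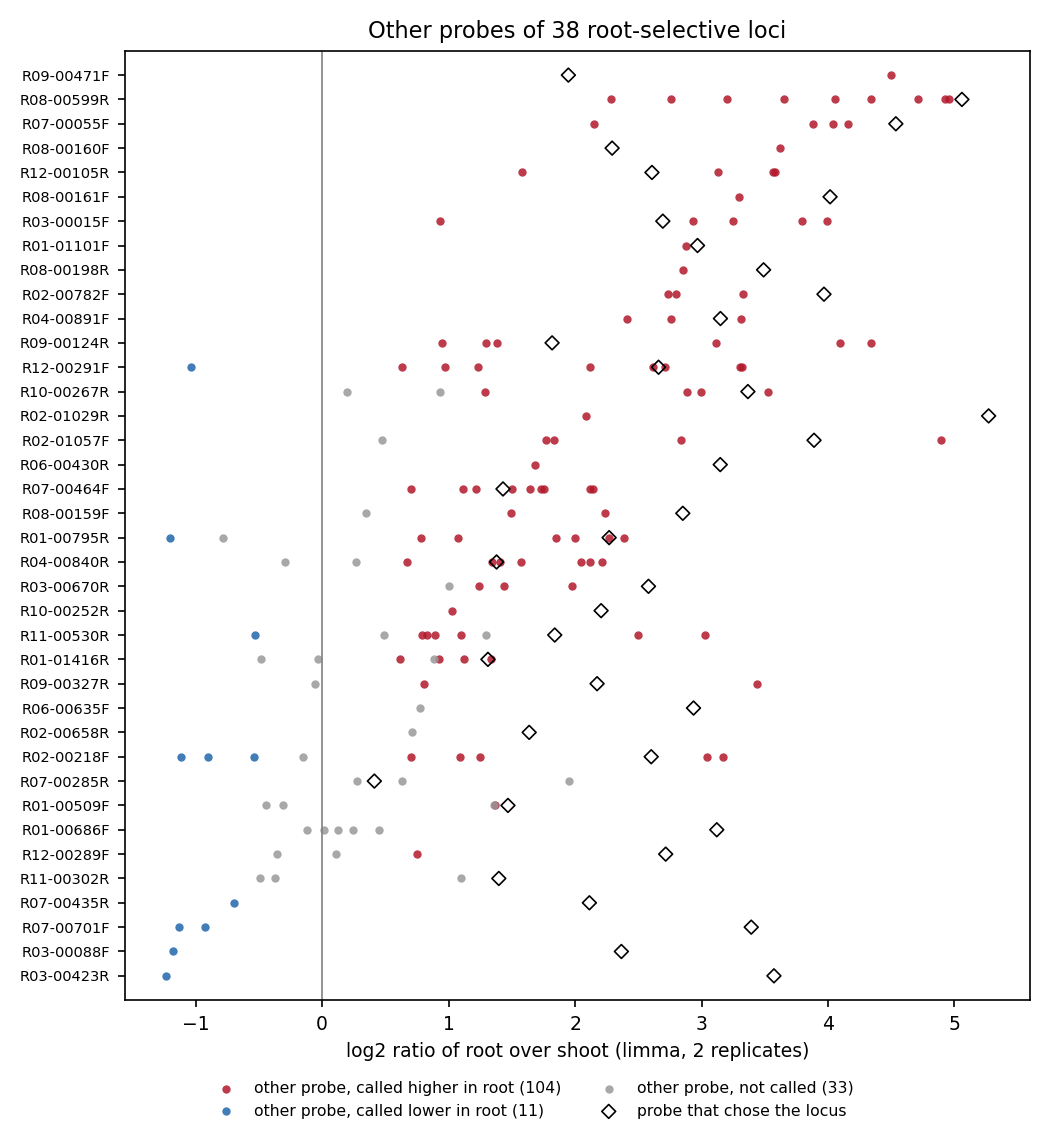
Log2 ratio of root over shoot (x, limma, 2 replicates) of the 148 other probes at 38 loci (rows, sorted by median). Points are other probes, colored by call, and open diamonds are the common probes that chose the loci; 104 points are called higher in root and 11 lower.

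The shoot of the indica cultivar IR64 was the only tissue that the selection did not use, although the Nipponbare shoot channel it is compared with was used. Its levels at the 189 loci had a median of 313, with quartiles of 97.6 and 579, and 38 loci (20.1%) were not well above background. This share was larger than the 12.4% at the 6382 loci under 1000 in Nipponbare shoot and the 3.97% at all loci. In Nipponbare shoot the median was 314. IR64 shoot was over 1000 at 14 of the 189 loci (7.41%), compared with 498 of the 6382 loci under 1000 in Nipponbare shoot (7.80%) and 66.8% of all loci. The share over 1000 was thus near that of other loci dim in Nipponbare shoot. Of those 14, 2 were over 2000 and 12 lay between 1002 and 1540. On array set 1 of replicate 2, the image software marked 2046 spots of the IR64 channel as outliers. It marked 97 on array set 2 of replicate 2, and 42 and 9 in replicate 1. With outlier spots left out, 14 of the 189 loci were over 1000 in IR64 shoot. Across the 138 loci with a value in both, Spearman's rho of the 2 shoot levels was 0.78 as a description over probes, which share arrays and probe sequence.

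Between the shoots of the 2 cultivars on the same arrays, 8 of the 189 loci were called higher in IR64 (4.23%) and 9 lower (4.76%). The shares were 3.54% and 5.98% of all 20404 common probes, and 2.84% and 4.26% of all 83040 probes (limma, adjusted p under 0.05). An unadjusted p under 0.05 was found at 21.2% of the 189 loci, 22.9% of all common probes and 16.9% of all probes. In this fit the shares were near the background in both directions. The median log2 ratio of IR64 over Nipponbare was 0.04 over the 189 loci, 0.01 over all common probes and 0.02 over all probes. A fit on only the IR64 arrays called 0 of the 189 loci and 0 of all probes. In that fit an unadjusted p under 0.05 was found at 23 of the 189 (12.2%) and at 11.7% of all probes (limma). With normexp and loess 7 of the 189 loci were called, against 8.9% of all probes, so the share of the loci was then below that of all probes. The probes were designed on Nipponbare sequence, and a lower level in IR64 and a sequence difference under the probe cannot be told apart.

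R08-00190F was the one locus with more signal in IR64 shoot than in Nipponbare root. IR64 shoot had 6685 and 9727, Nipponbare shoot had 622 and 1193 on the same arrays and 443 to 1582 on the others, and root had 3406 and 4583. The log2 ratio of IR64 over Nipponbare shoot was 3.21 ± 0.28 SE (limma, adjusted p = 0.00132), and both replicates showed it. R01-00084R had 2100 and 2022 in IR64 shoot and 554 and 432 in Nipponbare shoot (log2 ratio 2.04 ± 0.18 SE, limma adjusted p = 0.0021), without overlap with any of the 8 Nipponbare shoot values, of which the highest was 648. With normexp and loess the log2 ratios were 2.55 at R08-00190F and 1.23 at R01-00084R, and both stayed called. These were the only 2 of the 14 loci over 1000 in IR64 shoot that were called.

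R11-00524R had 888 and 941 in IR64 shoot and 421 and 354 in Nipponbare shoot (log2 ratio 1.21 ± 0.19 SE, limma adjusted p = 0.0162). R10-00350F had 262 and 212 in IR64 shoot, and in Nipponbare shoot 115 in 1 replicate and no signal well above background in the other (limma adjusted p = 0.0182). Without replicate 1 the adjusted p of these 2 was 0.053 and 0.0558, and without replicate 2 it was 0.102 and 0.11. With normexp and loess the log2 ratios of these 2 were 0.52 and 0.31, and both calls were lost (limma adjusted p = 0.0729 and 0.103). R02-01029R was called as well, but neither shoot was well above background on these arrays, so no fold is given, and its call was lost without replicate 2 (limma adjusted p = 0.0718), with normexp and loess (0.963) and with the deposited log ratios (0.399). Levels this low are close to background, and only the first of these 3 had values well above it in all 4 channels.

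Among the 9 loci called lower in IR64, 4 were not well above background in both IR64 hybridizations. R04-00044R had Nipponbare shoot levels of 1267 and 852 on those arrays, and was at least 2.35-fold lower in IR64 (limma adjusted p = 0.000174). R07-00545R had 823 and 991 in Nipponbare shoot (at least 2.22-fold, adjusted p = 0.000575 in limma), and R10-00537F had 870 and 747 (at least 1.96-fold, limma adjusted p = 0.00257). R02-00600F had 505 and 289 (at least 1.35-fold, limma adjusted p = 0.0427), and its call was lost without replicate 1 (adjusted p = 0.165), without replicate 2 (0.141) and with the replicate as a block (0.0523). The bounds divide by the lowest signal well above background on each array. The shoot levels of the first 3 in Nipponbare were all near the limit of 1000 in the rule, at 928, 938 and 955. R06-00448R was measured in both cultivars, with 274 and 264 in IR64 shoot and 587 and 734 in Nipponbare shoot (log2 ratio -1.30 ± 0.18 SE, limma adjusted p = 0.00703, and 0.0683 without replicate 2). With normexp and loess its log2 ratio was -0.57 and its call was lost (limma adjusted p = 0.176).

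**Figure D5:**
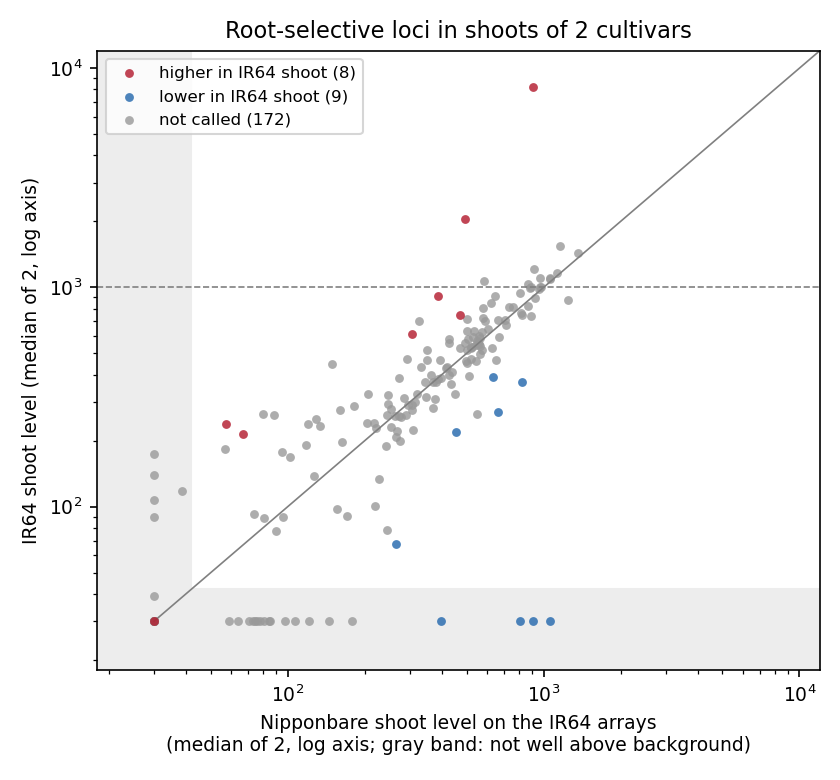
IR64 shoot level (y) against Nipponbare shoot level on the same arrays (x) of the 189 loci, each the median of 2 hybridizations on a log axis, with loci called in the fit in color (8 higher, 9 lower in IR64). The diagonal marks equal levels, the dashed line 1000 in IR64 shoot and the gray bands no signal well above background.

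By their names the 189 loci were spread over all 12 chromosomes. Their number per 100 loci was 0.926 over the genome and ran from 0.570 on chromosome 9 (6 loci) and 0.673 on chromosome 1 (20 loci) to 1.23 on chromosomes 8 (17 loci) and 10 (13 loci). The strand letter was F for 104 loci (55.0%, compared with 50.7% of all loci). Genome coordinates and the probes' sequences were not used here.

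Of the 189 loci, 17 stood directly beside another one in the order of their numbers on 1 chromosome and strand, in 8 groups. For comparison, 8 of the 133 shoot-selective, 6 of the 177 callus-selective and 22 of the 208 panicle-selective loci did so. The 1 group of 3 was R08-00159F, R08-00160F and R08-00161F on chromosome 8, with root levels of 3869 and 4010, 13592 and 12020, and 12776 and 14477. Callus was the next tissue of all 3, at 446, 407 and 613. Their single E5 probes at R08-00160F and R08-00161F met the rule, while 2 of the 3 E5 probes of R08-00159F were called higher.

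The other groups were pairs. R03-00574F and R03-00575F had root levels of 2641 and 24309, R03-00670R and R03-00671R had 4506 and 24498, and R01-01309R and R01-01310R had 23612 and 4178. R02-00348R and R02-00349R were closest in level, with 3870 and 3807 in root. The remaining pairs were R01-00508F and R01-00509F, R03-00087F and R03-00088F, and R10-00251R and R10-00252R, with root levels between 2086 and 8766. The second brightest tissue differed within 4 of the 8 groups. Near-identical neighbors could share signal, which was not tested. The 356 loci that stood beside a selective locus without being one had a median root level of 3589 and a median log2 ratio of root over shoot of 0.42, against 3201 and 0.31 over all loci.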

How the data were processed

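Total RNA was labeled with Cy3 or Cy5 and hybridized to 16 arrays, 4 per comparison, on 2 array sets that together held 83040 probes. The authors processed the images with Feature Extraction (8.1.1.1 per the file headers, 7.5 per the submitters' notes), and the deposited processed intensity was background-subtracted and dye-normalized within each array, but not scaled between arrays. The deposited log10 ratio of tissue over shoot and the mean and local background intensity were used only in alternatives. Flags other than well above background, saturated and outlier were not used, except the flag for a positive and significant signal in an alternative.

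Here each channel was divided by its median over probes other than controls and set to 1000, a probe that was not well above background there got 0, and the rule was applied to probes with names ending in _C. The members and lists were chosen with earlier results of these data known. Ratios were tested as log2 of processed intensity within arrays with limma 3.58.1 in R 4.3.3, in 1 fit of 8 arrays per array set with a coefficient per tissue, dye swaps turned to tissue over Nipponbare shoot, and Benjamini-Hochberg adjustment over both sets at 0.05. Lower bounds used normexp (offset 50), loess and Aquantile. The code was tested on simulated data. Python 3.11.15, pandas 2.3.3, numpy 2.4.6 and matplotlib 3.10.9 were used for levels and figures. Loci were named from the 10 highest in root, the 10 with the largest ratio over the next tissue, those at 0 in the other tissues, the 5 largest rises and 5 largest falls in IR64 shoot, the 5 furthest apart between root replicates, the 3 on each side of each threshold, those with the most other probes and those next to each other. Further loci named for their other probes were chosen after their values were seen. The number of arrays limits the precision. Alternatives were another scaling, background correction, filter, threshold, block and each replicate left out. Gene names, probe sequences and genome coordinates were not used here.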

Additional observations from a re-analysis of the deposited data

Results flagged for a closer look

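The 26 named selective loci well above background in all 8 Nipponbare shoot hybridizations were screened by Dixon's rule for a single value far from the others. Of the 26, 7 had one. Chance gives about 1 in 20 for independent, normally distributed values in groups not chosen on their values. These shoot levels were not put on a log scale, came from shared extracts and were used in the selection. Some loci were also named for extreme values, so the 7 are a description and not a test. On the root arrays, R10-00537F had 4349 in replicate 2 (537 to 1669 in the other 7), R07-00285R had 2188 in replicate 1 (322 to 939) and R10-00251R had 620.3 in replicate 2 (239 to 409). On the IR64 arrays, replicate 2 was high at R02-00218F with 1663 (262 to 638), at R10-00252R with 929 (155 to 489) and at R04-00877R with 828 (291 to 516). On array set 1 of that replicate, 2046 spots were marked as outliers in the IR64 channel and 94 in the Nipponbare shoot channel. On the panicle arrays, R02-00600F had 1548 in replicate 1 (289 to 666). All 7 were high values. The median shoot level of the 189 loci had no such value.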

How the results depend on the processing

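Counts were taken as moved when over 1.5 times apart and medians when further apart than 1 SD between replicates. By these limits 11 of 58 recomputed values moved and none changed direction, although some counts within 1.5 times held different loci: with root over 1000 and the others under 500 there were 137 loci, of which 86 were among the 189. The 189 loci fell to 51 when the root threshold was doubled and the other halved, and ranged from 177 to 200 with a replicate left out. With normexp and loess the median log2 ratio of root over shoot was 2.02 for the 189 loci and 0.90 for their other probes. That setting called 7 of the 189 loci between the shoots and 8.9% of all probes. With only the arrays of that comparison 0 loci and 0 of all probes were called. Centring the log ratios gave 3.12, shoot from the other arrays 3.63 and shoot from the root arrays 2.93 (182 loci), both of the last chosen after seeing the data. The median root level was 3426 when the median of probes well above background was set to 1000, and 3193 after normexp, loess and Aquantile. The first of these scalings left 4 loci over 1000 in IR64 shoot. With a replicate left out the median ratio was 3.03 to 3.10 for the 189 loci and 1.23 to 1.75 for their other probes. The median root level was then 4014 to 4840, and 11 to 18 loci were over 1000 in IR64 shoot. The loci called between the shoots were then in part different ones. The cause was not tested.

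With the replicate as a block, 18 of the 189 loci were called between the shoots, against 8.92% of all probes. Of these loci 14 were among the first 17. In the same fit 110 other probes were called higher in root. Deviations of same-numbered replicates correlated at 0.212 to 0.471 between comparisons across probes, but the number is also the dye orientation, and only 2 numbers exist. At the 33 loci not well above background in Nipponbare shoot and the 38 in IR64 shoot, the shoot level is known only as a bound.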
